A study of Mus musculus with 8 samples.

Results

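A nerve terminal releases transmitter by fusing synaptic vesicles with its membrane, and 34 mouse genes of this machinery were examined in chronic stroke infarcts. The genes were taken from a list by matching the Ensembl identifiers of the count tables to gene symbols, which found all 34 among 46078 identifiers. They comprise 4 genes of the SNARE core, 7 SNARE regulators and calcium sensors, 2 genes of SNARE recycling, 9 vesicle proteins, 6 active zone and priming genes, 5 genes of transmitter loading and synthesis, and the kinase gene *Camk2a*. All animals were wild-type C57BL/6J males, 18 months of age, that had undergone DH stroke, in which the distal middle cerebral artery is occluded and the animal is then exposed to hypoxia. From 1 week after stroke they were injected under the skin 3 times a week over 6 weeks with PBS (vehicle, n = 4) or with 2-hydroxypropyl-β-cyclodextrin at 4 g/kg (HPβCD, n = 4), a cyclic sugar that solubilizes cholesterol. Infarcts were recognized by eye and dissected by hand at 7 weeks, and each library is 1 animal. Animals keep the numbers 1 to 4 that the labels give them within each group.

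In a resting terminal, a vesicle is filled by transporters that carry glutamate or GABA, is tethered at the active zone and is primed there for release. When calcium enters, synaptotagmins bind it, and the vesicle SNARE (synaptobrevin, *Vamp1* and *Vamp2*) zips together with the membrane SNAREs (*Snap25* and *Stx1a*) to fuse the bilayers. NSF with its SNAP adaptors then pulls the spent complex apart. The messenger RNAs of these proteins are made in the neuron cell body, and in bulk tissue fewer neurons and less RNA per neuron cannot be told apart.

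Presynaptic RNA was concentrated in 2 of the 8 infarcts, both from vehicle-treated animals. Summed over the 34 genes, it came to 13906 CPM in vehicle animal 3, where CPM is the count divided by the library total, scaled for library composition and given per 1000000 counts, and to 2972 CPM in vehicle animal 1. Vehicle animals 2 and 4 had 329 CPM and 312 CPM, and the HPβCD animals 352, 349.8, 553 and 322 CPM. Vehicle animal 4 was thus below all HPβCD infarcts, and vehicle animal 2 was above only HPβCD animal 4. Vehicle animal 3 had the highest level of 31 genes, and vehicle animal 1 that of the remaining 3 (*Doc2b*, *Sv2c* and *Unc13c*). These animals were the 2 highest libraries for 31 genes, the exceptions being *Doc2b*, *Nsf* and *Syngr1*. Among the HPβCD infarcts, animal 3 had the highest level of 31 genes, and over the 6 infarcts other than vehicle animals 1 and 3 it was highest for 27.

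**Figure D1:**
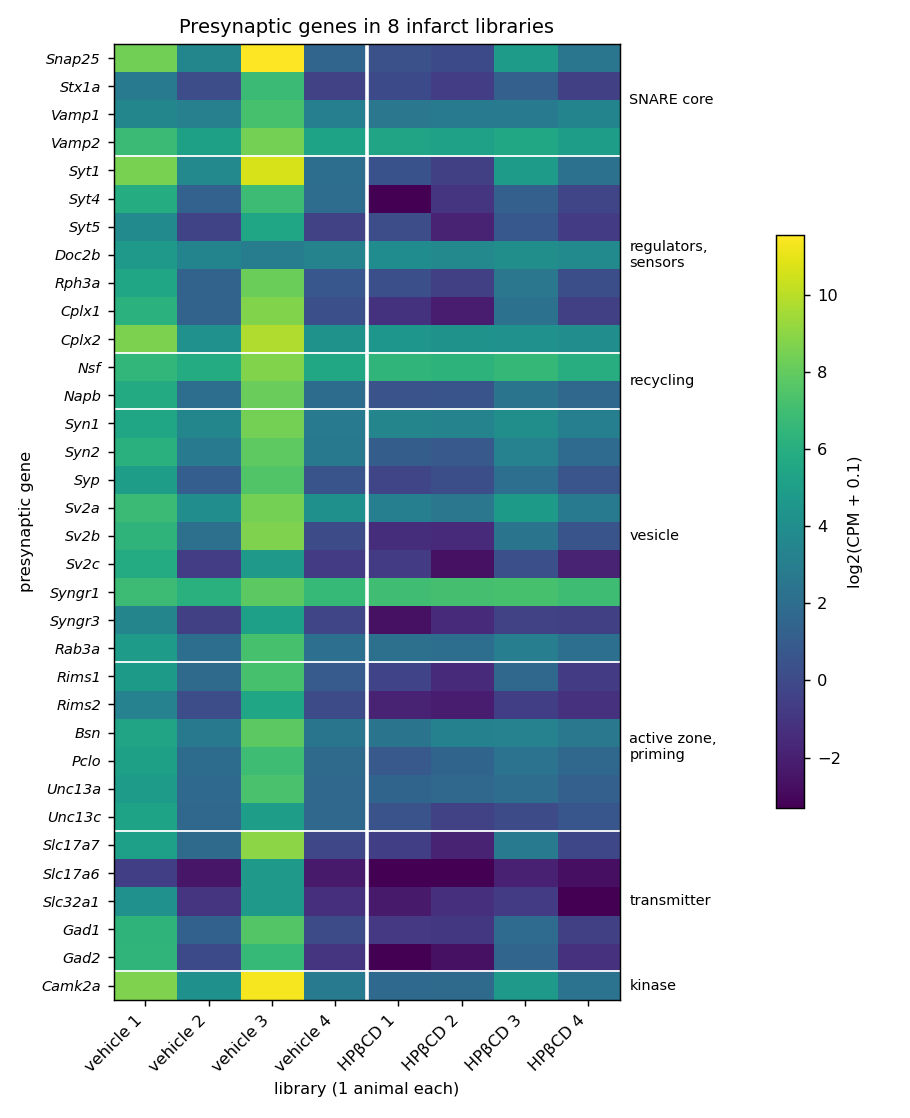
Expression of the 34 presynaptic genes (rows, grouped by role) in the 8 infarct libraries (columns), as log2(CPM + 0.1) in color. Vehicle animals 1 and 3 stand out in nearly all rows, whereas *Doc2b*, *Nsf* and *Syngr1* have similar colors across the libraries.

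Library totals lay between 16.6 M and 32.9 M gene counts, and a floor of 3 counts corresponds to between 0.0861 and 0.184 CPM. The tissue label was checked against cell type markers. Foamy macrophage markers summed to between 6916 and 12328 CPM in vehicle and between 15269 and 25053 CPM in HPβCD infarcts. Fibroblast markers summed to between 2879.8 and 6742 CPM in vehicle and between 9344 and 10580.3 CPM in HPβCD infarcts. Neither sum overlapped between the groups. By edgeR, 1 of 8 foamy macrophage markers (*Gpnmb*) and 3 of 8 fibroblast markers were called higher with HPβCD. The latter were *Col1a1*, *Col1a2* and *Pdgfrb*, chosen as the called ones after their values were seen. Called lower were 4 of 8 B lymphocyte and plasma cell markers, 1 of 10 astrocyte markers and 1 of 8 microglia markers. Of all tested genes, 0.774% were called lower and 1.95% in either direction. The B lymphocyte and plasma cell sums did not overlap either, with 1435 to 3008 CPM in vehicle and 269 to 576 CPM in HPβCD infarcts. In contrast, 12 general neuron markers summed to 3229.9 CPM in vehicle animal 3, to 824 CPM in vehicle animal 1 and to between 77.8 and 231 CPM elsewhere. All 12 neuron markers were higher in vehicle animal 3 than in vehicle animal 1, as were 31 of the 34 presynaptic genes. Astrocyte markers summed to between 2485 and 10193 CPM in vehicle infarcts and to between 799 and 2770.1 CPM in HPβCD infarcts. The high sum of vehicle animal 3 rested on the glutamate uptake gene *Slc1a2* (7431 CPM), and the other 9 astrocyte markers summed to 4012, 1801, 2762 and 2874 CPM in vehicle animals 1 to 4. Oligodendrocyte markers did not follow the same order, with 5329, 2674, 1693 and 3445 CPM in vehicle animals 1 to 4 and between 432 and 2313 CPM with HPβCD. The part of these cell types in the presynaptic differences was not tested.

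Expression of neuronal genes is restricted in other cells by the repressor REST, which binds a sequence called RE1, and is driven in part by CREB, which binds the cAMP response element (CRE). The RefSeq promoter windows of the members (GRCm38.p6, 250 bases before to 50 after the start) were searched on both strands for 3 sequences. These were the left part of RE1 (TTCAGCACC), the right part of RE1 (GGACAGC) and the full CRE (TGACGTCA), which do not overlap one another in the matches found. Windows were available for 26 of the 34 genes, 35 windows in all. The left RE1 letters were found in windows of *Syn1* and *Unc13a* and in 0.371% of 32851 windows of all genes, the right RE1 letters in *Gad2*, *Rph3a* and *Unc13a* and in 6.56% of all windows, and the full CRE in *Syn1* and in 1.79%. *Unc13a* alone held both parts of RE1, in 1 window and on the same strand, with first bases at positions 8 and 23 after its start. The upstream part of the *Syn1* window is printed since it alone held matches to 2 of the 3 sequences upstream of its start. *Syngr1* is set beside it as the vesicle gene with the most even level among the infarcts. Capitals mark the matches, with the left RE1 letters beginning 232 bases and the CRE 159 bases before the RefSeq *Syn1* start. The printed *Syn1* stretch ends 87 bases before that start, since GENCODE M21 places the gene from there on. No match was found in the *Syngr1* window, nor for most other members with windows, among them the widely varying *Syt1*, *Cplx1* and *Slc17a7*. The 2 printed genes are therefore no test of a link between matches and expression. A match of letters does not show that a factor was bound.
*Syn1*, chrX:20921005-20921168, minus strand: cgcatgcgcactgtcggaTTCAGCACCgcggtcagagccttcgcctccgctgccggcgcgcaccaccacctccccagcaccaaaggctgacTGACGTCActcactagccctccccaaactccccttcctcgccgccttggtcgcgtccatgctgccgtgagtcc
*Syngr1*, chr15:80091084-80091333, plus strand: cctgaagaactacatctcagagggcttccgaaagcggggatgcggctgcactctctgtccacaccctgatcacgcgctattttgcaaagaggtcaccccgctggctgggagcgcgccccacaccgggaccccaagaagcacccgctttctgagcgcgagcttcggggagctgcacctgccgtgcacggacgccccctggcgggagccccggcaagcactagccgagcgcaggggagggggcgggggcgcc

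Within the SNARE core, *Snap25* (ENSMUSG00000027273, chr2:136713453-136782428 on GRCm38), which encodes the membrane SNARE of most central synapses, had the highest level per kilobase of all 34 genes in vehicle animal 3. Its vehicle levels in animals 1 to 4 were 335, 11.1, 3023 and 2.74 CPM, a range of 1102-fold. With HPβCD they were 1.21, 0.919, 29.9 and 5.55 CPM, so vehicle animals 2 and 4 lay inside the HPβCD range. *Stx1a*, the syntaxin partner of *Snap25*, had 7.24, 1.06, 111 and 0.645 CPM in vehicle and 0.919, 0.551, 2.25 and 0.611 CPM in HPβCD infarcts. It differed 15.4-fold between vehicle animals 3 and 1, more than any other tested member. *Vamp2*, the main forebrain synaptobrevin, had 111, 35.8, 345 and 39.2 CPM in vehicle animals and 40.9, 36.9, 47.5 and 31.9 CPM in HPβCD animals. Apart from vehicle animals 1 and 3 its level was thus nearly even, between 31.9 and 47.5 CPM. *Vamp1*, the synaptobrevin prominent in spinal cord and brainstem, ranged from 8.34 to 148 CPM in vehicle and from 5.98 to 10.3 CPM in HPβCD infarcts, and only vehicle animal 3 exceeded 11.4 CPM.

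In the group of regulators and calcium sensors, *Cplx2*, a complexin that clamps and then assists the SNARE complex, had the highest mean level per kilobase. It had 390.2, 18.7, 873 and 19.8 CPM in vehicle and 22.9, 19.9, 18.3 and 15.7 CPM in HPβCD infarcts. *Cplx2* was thus high in vehicle animals 1 and 3 and nearly even elsewhere, between 15.7 and 22.9 CPM in the other 6 infarcts. The related complexin gene *Cplx1* spanned a wider range, from 0.123 to 428 CPM over all animals. *Syt1*, the calcium sensor of fast release, spanned 0.613 to 1616 CPM, its relative *Syt5* spanned 0.184 to 43.2 CPM, and *Rph3a*, a Rab3 effector, spanned 0.613 to 294 CPM. *Syt4*, a synaptotagmin of dense-core vesicles, had groups that did not overlap, as had 8.03% of all tested genes with HPβCD lower. Its vehicle levels were 59.3, 2.44, 119 and 3.93 CPM, and its HPβCD levels 0, 0.368, 2.25 and 0.777 CPM, the 0 being below the floor of 0.172 CPM of that library. The gap between the groups was small, since vehicle animal 2 stood at 2.44 CPM and HPβCD animal 3 at 2.25 CPM. *Doc2b*, a calcium sensor of spontaneous release, had a different profile, with 25.7, 10.2, 7.93 and 10.1 CPM in vehicle and 15.1, 12.7, 16.5 and 14 CPM in HPβCD infarcts. Vehicle animal 3, the highest library for 31 genes, had the lowest *Doc2b* level of all 8.

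The recycling genes diverged from each other. *Nsf*, the ATPase that disassembles SNARE complexes in all cells, had 94.2, 57.3, 426 and 49 CPM in vehicle and 86.6, 78.1, 95 and 61.1 CPM in HPβCD infarcts. Only vehicle animal 3 lay apart. *Napb*, the neuronal SNAP adaptor, had 55.8, 3.99, 288 and 3.76 CPM in vehicle and 1.32, 1.35, 5.21 and 3.11 CPM in HPβCD infarcts, with HPβCD animal 3 above the 2 lower vehicle infarcts.

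Among the vesicle proteins, *Syngr1* (ENSMUSG00000022415, chr15:80091334-80119501), a 4-pass membrane protein of synaptic vesicles, was the most even. It had 119, 69.1, 227 and 100.5 CPM in vehicle and 129.9, 146, 153 and 124 CPM in HPβCD infarcts. Vehicle animals 1, 2 and 4 had lower *Syngr1* levels than all HPβCD infarcts, and vehicle animal 3 had a higher level than all of them. *Sv2c*, the SV2 form of the basal ganglia, had 56.6, 0.545, 26.4 and 0.538 CPM in vehicle and 0.517, 0.0613, 1.13 and 0.167 CPM in HPβCD infarcts. Its highest level was in vehicle animal 1, in contrast to the other forms *Sv2a* and *Sv2b*, for which vehicle animal 3 exceeded vehicle animal 1 by 3.04-fold and 4.86-fold. The synapsins, which tether vesicles in the reserve pool, spanned 6.72 to 356 CPM (*Syn1*) and 1.72 to 237 CPM (*Syn2*). *Syp*, which encodes synaptophysin, spanned 0.747 to 185 CPM, *Syngr3*, a relative of *Syngr1*, spanned 0.0575 to 34.2 CPM, and *Rab3a*, the GTPase of the vesicle surface, spanned 4.08 to 149 CPM. For each of these 5 genes the highest infarct was vehicle animal 3 and the second vehicle animal 1. The annotation places an antisense transcript over 16.8% of *Syp* exon length and over 14.5% for *Syt4*, and whether the counting used strand was not stated, so some of their reads may belong to those transcripts.

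In the active zone group, *Rims1*, an organizer of calcium channels and vesicles at the release site and the gene with the highest mean level per kilobase of this group, had 27.8, 3.47, 151 and 1.83 CPM in vehicle and 0.69, 0.245, 3.22 and 0.5 CPM in HPβCD infarcts. HPβCD animal 3 lay between vehicle animals 4 and 2. *Rims2*, its close relative, had 9.73, 1.03, 43.2 and 0.968 CPM in vehicle and 0.172, 0.123, 0.59 and 0.333 CPM in HPβCD infarcts, with no overlap. The HPβCD values rest on 3, 2, 11 and 6 counts. HPβCD animal 1 was at the floor of 3 counts and HPβCD animal 2 below it. *Unc13c* (ENSMUSG00000062151, chr9:73479422-73968966), a Munc13 priming factor best known from the cerebellum, had 39.2, 2.98, 31.8 and 3.23 CPM in vehicle and 1.32, 0.674, 0.966 and 1.5 CPM in HPβCD infarcts. Its groups were the most clearly separated of the 34, since the lowest vehicle infarct had 2.98 CPM and the highest HPβCD infarct 1.5 CPM. *Unc13a*, the Munc13 of most forebrain synapses, did not share this separation. It had 29, 3.33, 156 and 3.07 CPM in vehicle and 2.7, 3.19, 3.92 and 2.28 CPM in HPβCD infarcts. The scaffold genes *Bsn* and *Pclo*, which encode bassoon and piccolo, spanned 5.29 to 227 CPM and 1.72 to 122 CPM.

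Transmitter genes separated vehicle animal 1 from vehicle animal 3. *Slc17a7*, the vesicular glutamate transporter of cortical excitatory neurons, had 33.7, 3.44, 499 and 0.807 CPM in vehicle and 0.575, 0.184, 7.24 and 0.833 CPM in HPβCD infarcts. Vehicle animal 3 exceeded vehicle animal 1 by 14.8-fold for *Slc17a7* and by 44.9-fold for *Slc17a6*, the glutamate transporter of subcortical excitatory neurons. The *Slc17a6* ratio rests on 420 counts in vehicle animal 3 and only 10 in vehicle animal 1. For the GABA genes the ratios were smaller, at 1.34 for the vesicular transporter *Slc32a1*, 1.18 for *Gad2* and 2.28 for *Gad1*, which encode the enzymes of GABA synthesis. Of the counts of *Slc17a7* and *Slc32a1* together, *Slc17a7* made up 64.3% in vehicle animal 1 (95% Wilson interval 61.2 to 67.3, from 596 and 331 counts) and 95.2% in vehicle animal 3 (94.7 to 95.6, from 8250 and 415 counts). The intervals do not overlap, and they cover counting error only. In HPβCD animal 3 the share was 93.1% (87.8 to 96.2), and in vehicle animal 2 it was 90.2% (84 to 94.2). The other 4 infarcts had at most 21 counts of both genes together and gave no usable share. Antisense annotation covers 24.9% of *Slc32a1* exon length. *Slc17a6* and *Slc32a1* were removed by the low-count filter of edgeR. Outside vehicle animals 1 and 3, *Slc17a6* had at most 3 counts and *Slc32a1* at most 13. *Camk2a* (ENSMUSG00000024617, chr18:60925618-60988152), which encodes a calcium-dependent kinase of excitatory forebrain neurons, had 414, 17.4, 2645 and 6.88 CPM in vehicle and 3.28, 3.49, 25 and 4.89 CPM in HPβCD infarcts.

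**Figure D2:**
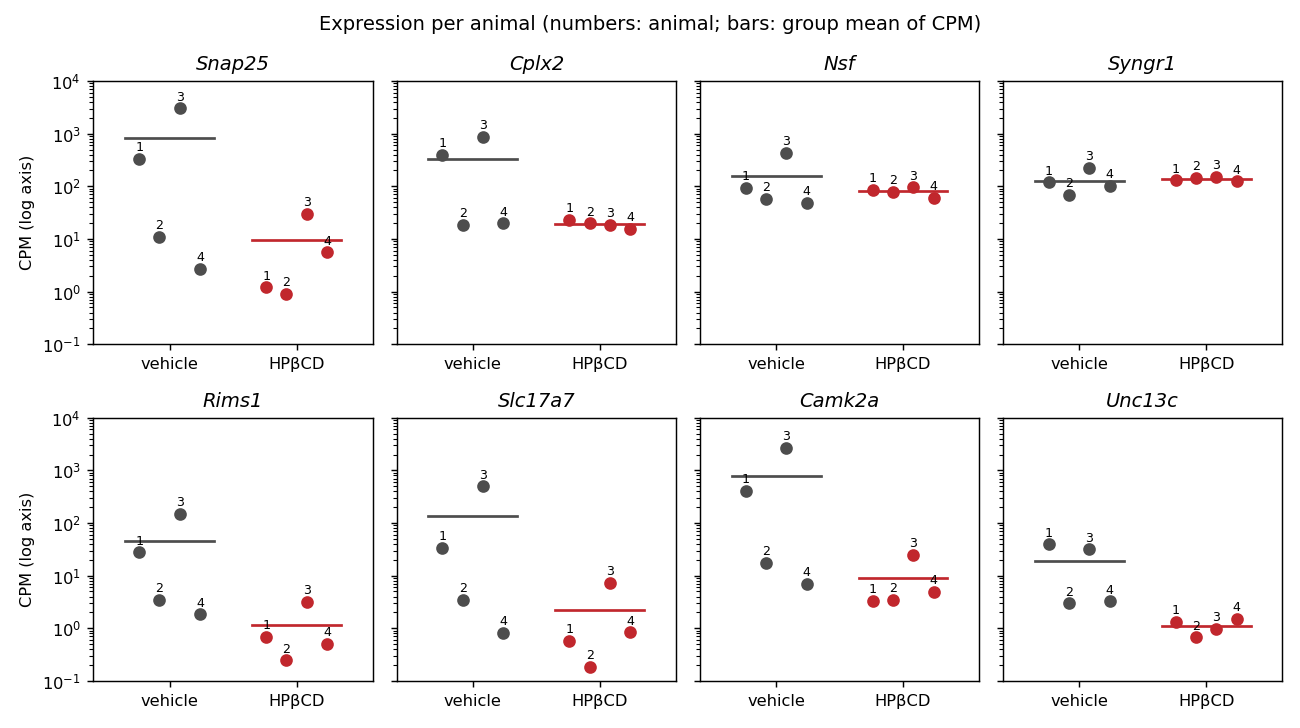
CPM on a log axis of 8 members in each animal (points, numbered by animal) with the group mean of CPM (bars). Vehicle animals 1 and 3 set the vehicle mean for *Snap25* and *Camk2a*, whereas *Syngr1* lay between 69.1 and 227 CPM and *Nsf* between 49 and 426 CPM in all 8 infarcts.

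Marker genes of neuron classes also differed between the 2 infarcts rich in presynaptic RNA. Vehicle animal 1 had 1527 CPM of striatal projection neuron markers and vehicle animal 3 had 150.2 CPM, and all 8 were higher in animal 1. They include the proenkephalin gene *Penk* with 224 CPM against 39.3 CPM. In the other 6 infarcts the list summed to between 70.6 and 177 CPM, and *Penk* made up most of each sum. It gave 124 of 141 CPM in HPβCD animal 1 and 162 of 177 CPM in HPβCD animal 2. Markers of cortical interneurons summed to 65.5 CPM in the former and 315 CPM in the latter, and all 8 were higher in animal 3. Markers of cortical projection neurons summed to 373 CPM and 622 CPM, with 8 of 10 higher in animal 3. The exceptions, *Bcl11b* (174 CPM in animal 1 and 38.9 CPM in animal 3) and *Foxp2* (138 and 66.1 CPM), made up most of the animal 1 sum. The sums therefore understate the contrast of the other 8. *Sv2c*, *Doc2b* and *Unc13c* were the 3 presynaptic genes with more RNA in vehicle animal 1, with ratios of vehicle animal 3 to vehicle animal 1 of 0.467, 0.308 and 0.811. The median of this ratio over the 34 genes was 4.48. Whether neuron class accounts for the differences between these 2 animals was not tested.

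**Figure D3:**
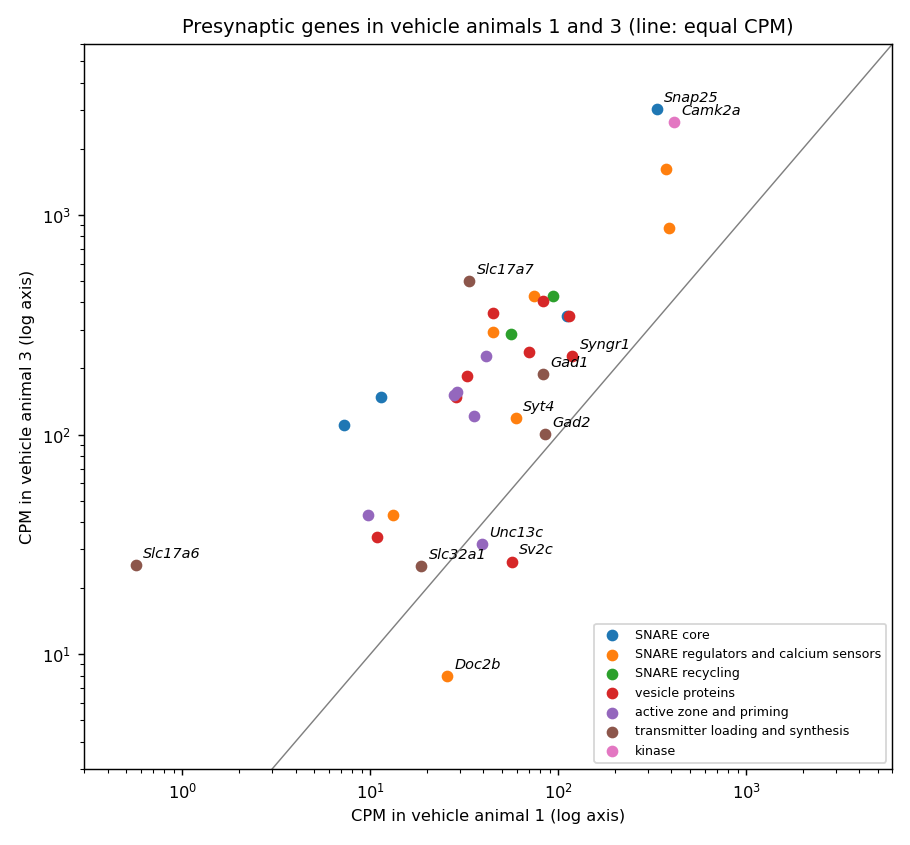
CPM of the 34 presynaptic genes in vehicle animal 1 (x, log axis) against vehicle animal 3 (y, log axis), colored by role, with the line of equal CPM. Only *Doc2b*, *Sv2c* and *Unc13c* lie under the line, *Slc17a6* and *Slc17a7* lie far above it, and *Gad2* and *Slc32a1* lie close to it.

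The order of levels among the genes also depended on the infarct. On the scale of CPM per kilobase of exon, vehicle animal 3 was led by *Snap25* (445), *Camk2a* (354), *Cplx1* (196), *Syt1* (194) and *Cplx2* (177), and *Syngr1* (47.3) held rank 14 of 34. By the median level over the 6 infarcts other than vehicle animals 1 and 3, *Syngr1* led with 26.4 CPM per kilobase, followed by *Vamp2* (9.99), *Nsf* (8.33), *Cplx2* (3.91), *Syn1* (3.17) and *Doc2b* (3.07). *Camk2a* ranked 9 and *Snap25* ranked 12 there, at 0.788 and 0.611 CPM per kilobase. All 34 genes exceeded 1 CPM per kilobase in vehicle animal 3, and 8 did so by the median of the 6 infarcts. Expressed as a percentage of the CPM in vehicle animal 3, that median was under 2% for 20 genes and between 2% and 10% for 10. It exceeded 10% for *Vamp2* (11%), *Nsf* (16.3%), *Syngr1* (55.8%) and *Doc2b* (169%).

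The comparison of HPβCD with vehicle asks whether repeated treatment changed these transcripts. Presynaptic genes were mostly lower in HPβCD infarcts, but none passed the test. In the quasi-likelihood test of edgeR, adjusted by Benjamini-Hochberg over 14736 genes, 0 of the 32 tested members had an adjusted p under 0.05, against 0.774% of all tested genes called lower and 1.95% called in either direction. Without adjustment, 29 of the 32 had a p under 0.05, as had 27.8% of all tested genes. The log2 fold change (HPβCD against vehicle) was negative for 30 members and positive for 2. Its median was -4.82, compared with -0.05 over all tested genes. The standard errors were wide, between 0.32 and 2.40 with a median of 1.47, where the median over all tested genes was 0.24. The smallest adjusted p-values belonged to *Unc13c* (log2 fold change -4.10, SE 0.98, adjusted p = 0.0674, edgeR), *Rims2* (-5.44, SE 1.46, adjusted p = 0.0796) and *Syt4* (-5.74, SE 1.63, adjusted p = 0.0852), which are also the 3 members whose groups did not overlap. Groups that did not overlap with HPβCD lower were found for 3 of 32 members and for 8.03% of all tested genes, and none of the members had such groups with HPβCD higher.

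By role, the median log2 fold change was -3.65 for the SNARE core (4 of 4 negative), -5.29 for regulators and calcium sensors (6 of 7), -2.98 for recycling (2 of 2), -4.23 for vesicle proteins (8 of 9), -4.04 for active zone and priming genes (6 of 6) and -5.84 for the 3 tested transmitter genes. The 3 lowest values belonged to *Snap25* (-6.48, SE 2.40), *Camk2a* (-6.39, SE 2.04) and *Cplx1* (-6.38, SE 2.14), and their adjusted p-values were 0.134, 0.101 and 0.11 by edgeR. *Syt1*, *Sv2b*, *Slc17a7*, *Gad1* and *Gad2* had values from -6.13 to -5.75. At the other end, *Doc2b* (0.11, SE 0.35) and *Syngr1* (0.10, SE 0.32) were slightly positive, and *Nsf* (-0.97, SE 0.70) and *Vamp2* (-1.75, SE 0.73) were the least negative.

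The outcome differed by tool. DESeq2, the tool used by the study, called 27 members lower and none higher among the 30 for which it gave an adjusted p, where it called 11.1% of all genes lower. The exceptions were again *Doc2b*, *Nsf* and *Syngr1*. The smallest DESeq2 adjusted p-values were 1.59e-05 for *Unc13c* and 0.000479 for *Rims2*. DESeq2 gave no adjusted p for *Stx1a*, *Vamp1*, *Slc17a7* and *Slc17a6*. Limma-voom with sample quality weights, which gives less weight to libraries that stand apart, called none of the members and 10.9% of all genes lower, and its smallest adjusted p among members was 0.0634, for *Syngr1* (log2 fold change 0.51, higher with HPβCD). By that tool 4 of the 32 members had an unadjusted p under 0.05, as had 37.9% of all tested genes.

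The spread within the vehicle group exceeded that in the HPβCD group for every tested member. The standard deviation of log2 CPM was larger in vehicle for 32 of 32 members, and for 66.6% of all tested genes. Its median over the members was 2.82 in vehicle and 1.01 in HPβCD infarcts, and over all tested genes 0.36 and 0.26. For *Snap25*, the means were 843 ± 1461 CPM (SD, n = 4) in vehicle and 9.41 ± 13.9 CPM (SD, n = 4) in HPβCD infarcts, so in both groups the SD exceeded the mean. *Unc13c* had 19.3 ± 18.9 and 1.12 ± 0.368 CPM (SD, n = 4 each), and *Syngr1* had 129 ± 68.8 and 138 ± 13.6 CPM (SD, n = 4 each).

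The lower levels with HPβCD depended on vehicle animals 1 and 3, the 2 highest libraries for 31 of the 34 genes. Leaving out these 2 animals raises the fold changes of such genes by construction, so an upward shift was fixed in advance. With both left out, 16 of the 32 tested members were lower and 16 higher with HPβCD, and the median log2 fold change was -0.03, against 0.01 over 15066 genes. None was called, where 1.34% of all genes were, and the smallest adjusted p was 0.0835 (edgeR, 2 vehicle against 4 HPβCD animals). *Snap25* had 0.45 (SE 1.64) in this comparison, and *Camk2a* -0.39 (SE 1.03). An unadjusted p under 0.05 was obtained for 5 members, and for 21.5% of all genes. *Unc13c* (-1.45, SE 0.36) and *Rims2* (-1.66, SE 0.58) were lower, and *Syngr1* (0.72, SE 0.18), *Nsf* (0.61, SE 0.19) and *Doc2b* (0.54, SE 0.18) were higher, with adjusted p-values of 0.0835, 0.157, 0.0887, 0.131 and 0.142 by edgeR. *Syt4* had -1.86 (SE 1.00, adjusted p = 0.324, edgeR). These fold changes rest on 2 vehicle animals.

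**Figure D4:**
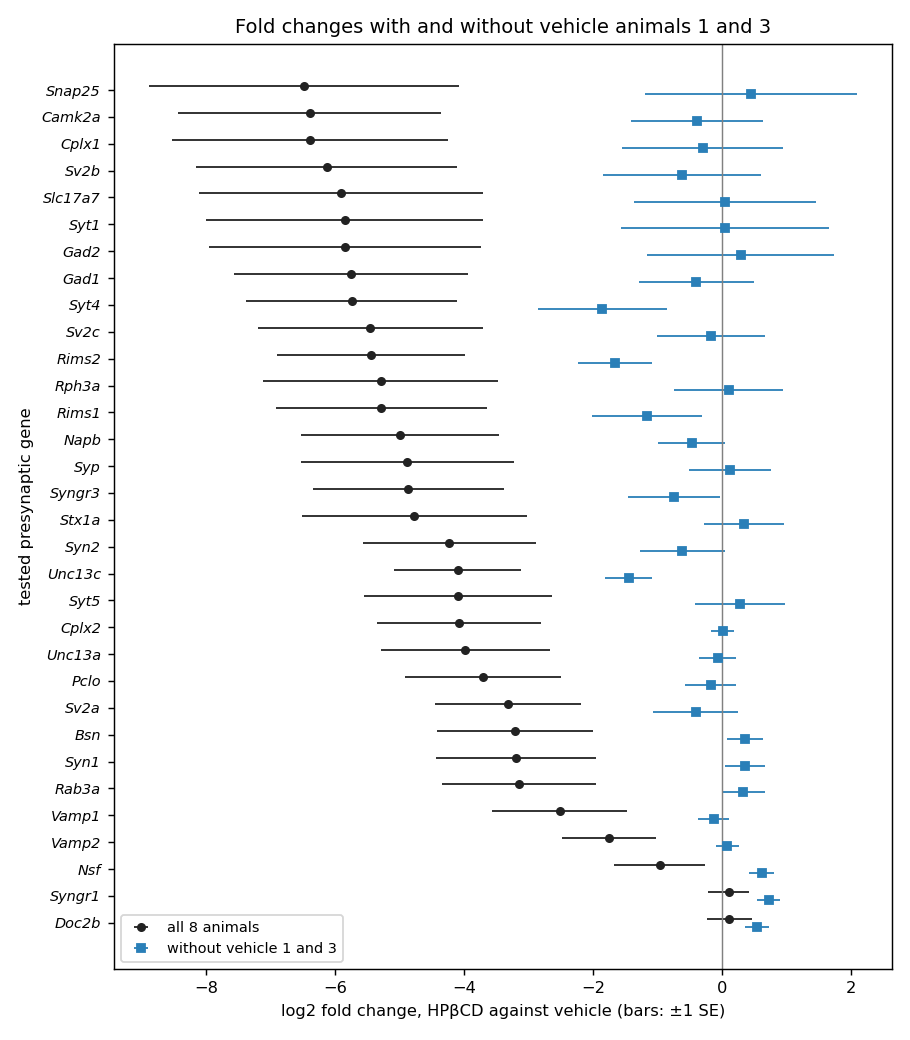
Log2 fold changes (HPβCD against vehicle, ±1 SE, edgeR) of the 32 tested members with all 8 animals (circles) and without vehicle animals 1 and 3 (squares). The circles run from -6.48 to 0.11 and the squares from -1.86 to 0.72, with *Unc13c*, *Rims2* and *Syt4* farthest to the left among the squares.

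To see whether the neuronal member of a gene family differed from a form that most cells use, 6 members were set against a broadly expressed relative in the same library. Such a ratio does not depend on scaling between libraries. *Snap23*, which replaces *Snap25* in other cells, had 46.6, 66.8, 26.8 and 63.4 CPM in vehicle and 59.9, 60.1, 64.3 and 68.4 CPM in HPβCD infarcts, so it was lowest in the 2 infarcts where *Snap25* was highest. *Vamp3* had 171, 240.2, 88.4 and 239 CPM in vehicle and 172, 185, 166 and 239 CPM in HPβCD infarcts, again lowest in vehicle animal 3. *Stx4a*, a syntaxin of the plasma membrane of many cells, was even, with 26.4, 26.5, 31.5 and 28.8 CPM in vehicle and 28.4, 33.1, 26.3 and 31.4 CPM in HPβCD infarcts. *Napa*, the general SNAP adaptor, had 44, 32.3, 108 and 33.5 CPM in vehicle and 51.7, 50, 65.6 and 39.6 CPM in HPβCD infarcts, and was highest in vehicle animal 3. *Syngr2* had 90.7, 116, 50.1 and 116 CPM in vehicle and 119, 147, 168 and 112 CPM in HPβCD infarcts. *Unc13d*, the Munc13 of blood cell granules, had 5.66, 7.32, 5.75 and 5.43 CPM in vehicle and 6.55, 7.05, 8.53 and 4.66 CPM in HPβCD infarcts. Across the 6 relatives the highest vehicle level was between 1.19 and 3.35 times the lowest, whereas across their 6 neuronal partners it was between 3.29 and 1102 times. None of the relatives was called, with adjusted p-values from 0.221 to 0.94 by edgeR.

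The mean log2 ratio of *Napb* to *Napa* was -1.10 ± 2.33 (SD, n = 4) in vehicle and -4.44 ± 0.91 (SD, n = 4) in HPβCD infarcts. The difference of -3.34 had p = 0.0286 by an exact two-sided permutation test, the smallest p that 4 against 4 animals allow, and 0.171 after Benjamini-Hochberg adjustment over the 6 pairs. All 4 HPβCD animals had a lower ratio than all 4 vehicle animals, although vehicle animals 2 and 4 were close to them at -3.01 and -3.14, against -3.65 in HPβCD animal 3. The differences of the other pairs were -4.72 for *Snap25* to *Snap23* (exact p = 0.2), -2.45 for *Stx1a* to *Stx4a* (exact p = 0.2), -2.43 for *Unc13a* to *Unc13d* (exact p = 0.0857), -1.27 for *Vamp2* to *Vamp3* (exact p = 0.371) and -0.37 for *Syngr1* to *Syngr2* (exact p = 0.743), with adjusted values between 0.257 and 0.743 over the 6 pairs. Without vehicle animals 1 and 3 the *Napb* to *Napa* difference was -1.36 and that of *Snap25* to *Snap23* was -0.52.

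**Figure D5:**
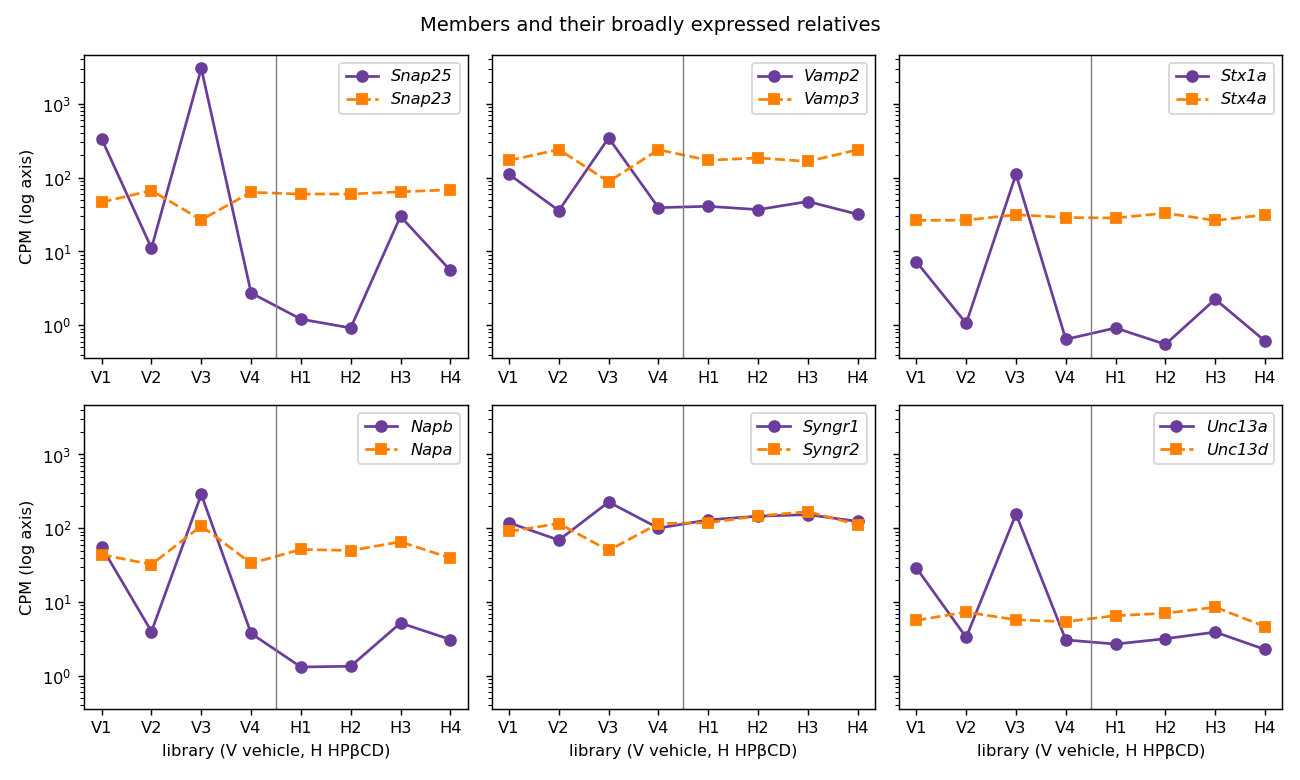
CPM on a log axis of 6 members (circles) and of a broadly expressed relative of each (squares) in the 4 vehicle (V) and 4 HPβCD (H) libraries. The members peak in V3, while the relatives stay within 3.35-fold in the vehicle group.

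The wider pathway was read from 2 further lists. Of 44 other presynaptic genes, 43 were matched and 37 tested, and 35 of the 37 had a negative log2 fold change, with a median of -3.31. None was called by edgeR, where 1.95% of all tested genes were. An unadjusted p under 0.05 was found for 28 of the 37, against 27.8% of all tested genes. They summed to 6845 CPM in vehicle animal 3, to 1869.9 CPM in vehicle animal 1 and to between 489.6 and 643 CPM in the other infarcts. Without vehicle animals 1 and 3 their median was -0.15. Of 24 broadly expressed genes of membrane fusion, 22 were tested, 4 with a negative and 18 with a positive log2 fold change, and the median was 0.13. None of these was called by edgeR. An unadjusted p under 0.05 was found for 5 of the 22, a share near the 27.8% of all tested genes. Their sum lay between 1238 and 1582 CPM in vehicle and between 1509 and 1648 CPM in HPβCD infarcts.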

How the data were processed

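Bulk RNA sequencing libraries were prepared from infarcts of 8 animals with a stranded poly(A) kit. Per the submitters' processing notes and the methods, the authors used bcl2fastq 2.19, Trimmomatic 0.32, STAR 2.5.2b, the build GRCm38 and htseq-count, and they deposited raw counts per gene for each library. The strand option and annotation release are not given in the sources used here. The 5 lines of reads assigned to no gene (26.6% to 36.6% of a library) were left out. Symbols matched 45143 of the 46078 identifiers, and positions and exon lengths came from GENCODE M21 on GRCm38.

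Counts were tested with edgeR 4.0.16 in R 4.3.3 (robust quasi-likelihood F test, TMM scaling, filterByExpr, no covariate, adjusted p under 0.05 over 14736 genes). DESeq2 1.42.0, limma 3.58.1, other scalings and filters, and left-out libraries were alternatives. Log2 CPM used a prior count of 2, and ratios of relatives added 0.5 to each count. Ratios were compared by exact permutation over 70 assignments. Groups came from the labels, which give no batch, and the libraries were taken as 8 separate animals. Counts of each 2 libraries differed by more than sampling noise (lowest chi-square per degree of freedom 20.3). Nothing in the sources used here says that equal animal numbers in the groups mark pairs, and correlations of same-numbered deviations were not all above 0.1, so the animals were not treated as paired. The members, roles, pairs, lists and the removal of vehicle animals 1 and 3 were chosen with earlier results of these data known. All 34 members are named. Values in every library are given for the member with the highest mean level per kilobase in each role, those highest outside vehicle animal 3, those whose groups do not overlap, and the pairs of relatives. Of other lists, only the broadly expressed relatives and genes among the 3 with the highest mean CPM are named. *Col1a1* and *Pdgfrb* are exceptions, named because edgeR called them. Promoter windows were RefSeq (GRCm38.p6), trimmed where GENCODE M21 places the gene.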

Additional observations from a re-analysis of the deposited data

Results flagged for a closer look

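In 3 of 80 sets of 4 values searched, 1 animal lay apart from the other 3 by Dixon's criterion, where chance gives about 4. The sets come from the same animals and are not independent, so that number is only a rough guide. The criterion looks for a single outlying value. Vehicle animals 1 and 3, both high for most genes, can therefore hide each other, and few flags do not mean an even vehicle group. *Vamp1* had a log2 CPM of 7.21 in vehicle animal 3, against 3.08 to 3.52 in the other vehicle animals. *Rab3a* had 3.06 in HPβCD animal 3, against 2.07 to 2.16 in the other HPβCD animals. *Gad1* had 1.87 in HPβCD animal 3, against -0.92 to -0.49 in the other HPβCD animals.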

How the results depend on the processing

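The negative direction of most members was kept under the other scalings, filters and tools, and was lost when vehicle animals 1 and 3 were both left out. Leaving out the highest libraries of most members raises their fold changes by construction. The median log2 fold change of the members then went from -4.82 to -0.03, and it was -1.81 by limma-voom with quality weights. It was -2.79 without vehicle animal 3 alone. Without both animals, log2 fold changes turned positive for *Snap25* (0.45), *Stx1a* (0.34), *Vamp2* (0.08), *Syt1* (0.05), *Syt5* (0.28), *Rph3a* (0.10), *Cplx2* (0.01), *Nsf* (0.61), *Syn1* (0.35), *Syp* (0.12), *Rab3a* (0.33), *Bsn* (0.36), *Slc17a7* (0.05) and *Gad2* (0.29). *Nsf* was also positive by limma-voom (0.38). DESeq2 called 27 members, and leaving out single animals called between 0 and 1, the 1 being *Unc13c* without vehicle animal 2 (adjusted p = 0.0434, edgeR). With single animals left out, log2 fold changes ranged from -0.10 to 0.53 for *Syngr1*, from -0.07 to 0.64 for *Doc2b* and from -1.26 to 0.27 for *Nsf*, and the log2 ratio difference of *Syngr1* to *Syngr2* from -0.75 to 0.23.

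Over all genes, 287 were called by edgeR, 2899 by DESeq2, 3232 by limma-voom, and 11 with library totals alone. With single animals left out the edgeR count ranged from 0 to 629. It was 629 without vehicle animal 3, 556 without vehicle animal 2, 4 without HPβCD animal 1, and 0 without vehicle animal 1 or 4 or HPβCD animal 2 or 3, where between 2922 and 4216 genes had an unadjusted p under 0.05. The animal number as a replicate block, which the labels do not say marks pairs, gave 9 called genes, no called member (18 of 32 with an unadjusted p under 0.05, against 23.6% of all genes) and a member median of -3.29. The median over all genes was -0.13 with library totals, -0.17 by DESeq2 and -0.15 with no filter, against -0.05. The cause of these changes was not tested. Depth limited the lowest genes: 14 of the 34 members had fewer than 10 counts in at least 1 library. With 3 against 4 animals the smallest exact p is 0.0571, which cannot pass the threshold for the *Napb* to *Napa* ratio.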

Other observations

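The summed level of dense-core secretory granule genes was also highest in vehicle animals 3 and 1. A list of 8 neuroendocrine and secretory genes was dominated by *Cpe*, a peptide-processing enzyme that astrocytes also express, at 6345 and 5354 CPM in vehicle animals 1 and 3. The other 7 genes were all higher in animal 3 and summed to 418, 71.9, 909 and 117 CPM in vehicle animals 1 to 4. With HPβCD these 7 summed to 21.2, 20.2, 98.5 and 45.5 CPM, highest in animal 3 as for most presynaptic genes. The ratio of vehicle animal 3 to vehicle animal 1 was 2.18 for the 7 genes and 4.68 for the sum of the 34 presynaptic genes. Marker lists of microglia, oligodendrocyte precursors, foamy macrophages, fibroblasts, endothelium, B and T lymphocytes, erythroid cells and choroid plexus had ratios of vehicle animal 3 to vehicle animal 1 between 0.575 and 1.22. The oligodendrocyte and astrocyte lists lay outside this range, with ratios of 0.318 and 1.31.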
